A study of Mus musculus with 18 samples.

Results

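UN-SCC679 cells carrying the sh3 construct were compared with the same cells carrying the empty TPLKO vector, and the response was described across all genes. The comparison used 6 of the 18 libraries of the series, 3 for sh3 and 3 for empty TPLKO, chosen by their sample titles because the phenotype label, a lowering of DSTYK, is the same in both arms. TPLKO is the vector named in the titles, and the sh3 libraries are those of its DSTYK hairpin. UN-SCC679 is a mouse cell line labelled as lung squamous carcinoma, from the A/J strain, and doxycycline is given as the treatment of all 6 libraries. Per the design text, the study characterised the transcriptome of its cell lines with DSTYK altered. The sequence of the hairpin, the time on doxycycline and whether the cells were clones or pools were not given in the sources used here. The labels number the replicates without saying whether each came from its own culture; the spread behind every p-value is that between libraries and may be technical.

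DSTYK is a protein kinase with a catalytic domain that can phosphorylate serine, threonine and tyrosine. Loss of its function is known in humans from malformations of the urinary tract, where it has been linked to signalling by fibroblast growth factor receptors, and in zebrafish from defects of the large vacuoles of the notochord.

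The label was set against markers of the tissue. Of 15 squamous and basal cell markers, 8 passed the low-count filter, of which 6 were called higher in sh3 (5 at least 2-fold) and 1 lower, with a median log2 fold change of 1.36. Trp63, the basal cell transcription factor p63, averaged 13.5 CPM in sh3 and 2.19 CPM in empty TPLKO, and the basal keratin Krt14 averaged 14.1 and 3.07 CPM (CPM are counts scaled to library size). The summed level of the list was 240 to 245 CPM in sh3 and 241 to 252 CPM in empty TPLKO. Most of that sum came from Pkp1, a desmosomal plaque protein, which was called lower (log2 -0.21), while the basal keratin Krt5 had 2 counts over the sh3 libraries and 0 over the empty TPLKO libraries, and the desmosomal cadherin Dsg3 had 0 in both. The epithelial adhesion genes Epcam, with 1 count in sh3 and 2 in empty TPLKO, and Cdh1, with 42 and 2 counts, were also near 0, although the keratin Krt8 was well expressed. The rise was not limited to squamous markers. Of 13 alveolar and club cell markers, 6 passed the filter, 4 were higher, all at least 2-fold, and 1 lower, with a median of 1.64. Their summed level was 154 to 158 CPM in sh3 and 152 to 155 CPM in empty TPLKO. Of 12 fibroblast markers, 8 passed the filter, 6 were higher (3 at least 2-fold) and 1, Col1a2, lower, with a median of 0.44; Pdgfra, a receptor of fibroblasts, rose by 3.04 on the log2 scale. They summed to 13558 to 13873 CPM in sh3 and 15560 to 15958 CPM in empty TPLKO, Col1a2 alone at 8463 to 8688 CPM in sh3 and 11461 to 11776 CPM in empty TPLKO. Leukocyte markers summed to at most 2.70 CPM in sh3 and 2.27 CPM in empty TPLKO, and endothelial markers to 5.68 to 5.93 CPM in sh3 and 2.52 to 3.03 CPM in empty TPLKO. The defining leukocyte gene Ptprc had 6 and 13 counts and the defining endothelial gene Cdh5 had 1 and 0 counts over the sh3 and the empty TPLKO libraries.

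Dstyk lies at chr1:132417555-132466958 on the plus strand (GRCm38). It stood at 26.6, 26.7 and 25.1 CPM in sh3 and at 36.4, 36.3 and 38.0 CPM in empty TPLKO. All sh3 libraries lay below all empty TPLKO libraries, and the gene fell by 0.50 on the log2 scale (SE 0.040, adjusted p = 5.61e-07 in edgeR's quasi-likelihood test with Benjamini-Hochberg adjustment). Transcript ENSMUST00000045110.13 held nearly all of these counts, with 1181, 1124 and 1018 estimated counts in sh3 and 1490, 1630 and 1501 in empty TPLKO.

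Libraries held between 40525385 and 46371244 estimated counts, of which the 10 most abundant genes took 5.86% to 6.12%. Of 36047 listed genes, 14271 passed the filter and were tested. The values are counts of RNA from whole cultures, so fewer cells of a type and less RNA per cell cannot be told apart. The first principal component of log2 CPM held 88% of the variance and separated sh3 from empty TPLKO, and the biological coefficient of variation within groups, from edgeR's common dispersion, was 3.76%.

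The difference between sh3 and empty TPLKO, here called the response, was broad and mostly small. A single hairpin was compared with an empty vector. Effects of lowered Dstyk, other effects of the hairpin and other differences between the cell populations therefore cannot be told apart. A gene is called at an adjusted p under 0.05, and 9112 genes (63.8% of those tested) were called, 4541 of them higher (31.8%) and 4571 lower (32.0%) in sh3. These shares of all tested genes are the background for every list count given here. Of the called genes, 71.4% differed by less than 1.5-fold, and the median size of a called change was 0.34 on the log2 scale. The larger changes were mostly rises, with 1147 genes (8.04%) at least 2-fold higher and 324 (2.27%) at least 2-fold lower. At 8-fold the counts were 309 higher and 27 lower. No overlap between the 3 sh3 and the 3 empty TPLKO values was seen for 68.2% of tested genes.

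Most of the large rises were of weakly expressed genes. Among the 2187 tested genes with a mean log2 CPM under 0, 27.9% were called and 432 of these were at least 2-fold higher. Among the 681 genes with a mean log2 CPM of 8 or more, 87.4% were called, of which 10 were at least 2-fold higher and 9 at least 2-fold lower. Genes at least 2-fold higher took 2.65% of all counts in sh3 and 0.81% in empty TPLKO, and genes at least 2-fold lower took 1.22% in sh3 and 2.85% in empty TPLKO.

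**Figure D1:**
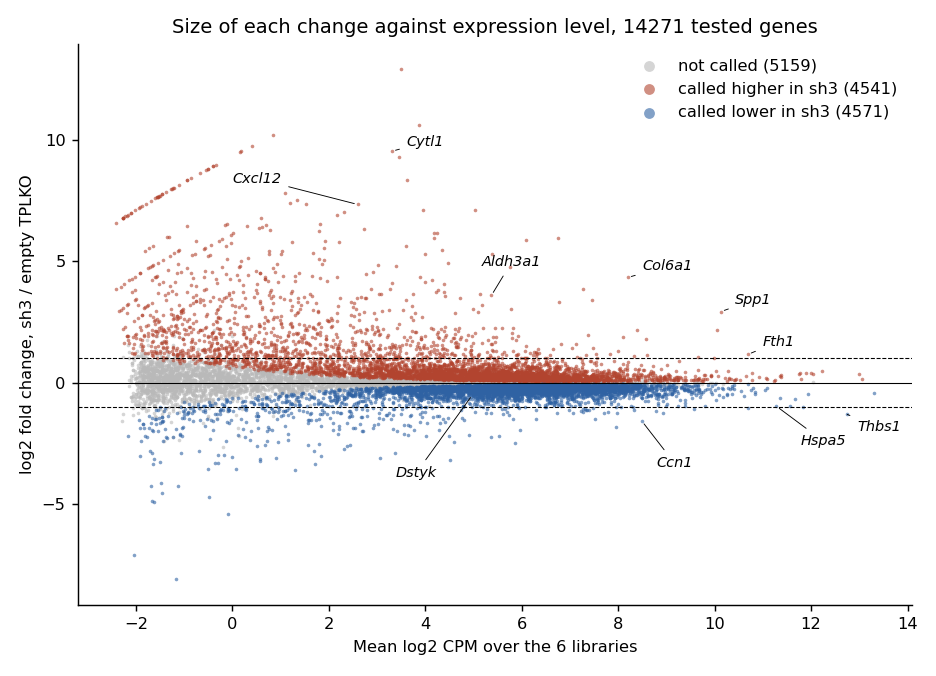
Log2 fold change of sh3 over empty TPLKO (vertical) against the mean log2 CPM over the 6 libraries (horizontal) for the 14271 tested genes, red where called higher in sh3, blue where called lower and grey where not called, with dashed lines at a 2-fold change. The 1147 rises past the upper line lie mostly at low expression, while Fth1, Spp1 and Col6a1 are large rises and Thbs1 and Ccn1 large falls at high expression.

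Genes that take proteins into the endoplasmic reticulum (ER), fold them there and carry them onward were mostly lower in sh3. Nearly all of these falls were smaller than 2-fold, and their size varied within each list. Secreted and membrane proteins enter the ER through the SEC61 channel, lose their signal peptide, gain N-linked glycans, are folded by chaperones and disulfide isomerases, and leave in COPII vesicles, and those that do not fold are drawn back out and degraded. Of 30 ER chaperones and isomerases, 22 were called lower and 5 higher, with a median log2 fold change of -0.36, against 0.011 for all tested genes. Of 36 genes of N-glycan assembly, 28 were lower and 4 higher (median -0.32). Of 25 genes of ER import, 19 were lower and 3 higher (median -0.30), and of 40 coat and cargo receptor genes, 33 were lower and 4 higher (median -0.27).

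Hspa5, which encodes the central ER chaperone BiP, stood at 1689, 1685 and 1668 CPM in sh3 and at 3248, 3306 and 3317 CPM in empty TPLKO (log2 -0.97, SE 0.014). The signal peptidase subunit Spcs3 stood at 470, 484 and 507 CPM in sh3 and at 1062, 1052 and 1026 CPM in empty TPLKO, and its log2 change of -1.10 (SE 0.026) was the lowest of the import list. Both groups of libraries were tight and lay far apart for each gene. Hyou1, an ER chaperone that exchanges nucleotide on BiP, averaged 665 CPM in sh3 and 1004 CPM in empty TPLKO (log2 -0.59). Magt1 of the oligosaccharyltransferase averaged 163 CPM in sh3 and 237 CPM in empty TPLKO (log2 -0.54). Vcp, the ATPase that pulls misfolded proteins out of the ER membrane, averaged 833 CPM in sh3 and 1140 CPM in empty TPLKO (log2 -0.45), and Herpud1, which organises that process, averaged 99.5 and 159 CPM (log2 -0.68). In the ERAD list as a whole, 15 of 23 members were lower and 4 higher.

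A few ER genes went the other way. Fkbp10, a prolyl isomerase of the ER that acts on collagen, stood at 18.9, 18.4 and 18.4 CPM in sh3 and at 0.99, 1.13 and 1.07 CPM in empty TPLKO, with no overlap (log2 4.12, SE 0.086, adjusted p = 6.36e-12). It was the largest rise of the folding list. Copz2, a COPI subunit, rose to between 13.3 and 14.5 CPM in sh3, against 6.47 to 7.19 CPM in empty TPLKO, and Rnf5, a ubiquitin ligase of the ER, rose by 0.71 on the log2 scale.

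Promoters of ER chaperone genes carry the ER stress response element (ERSE), the binding site of ATF6 with NF-Y, and the letters of this element are shown because the folding list was searched for them. The search covered both strands of RefSeq promoter windows (GRCm38.p6), from 250 bases before to 50 after each annotated start, for the pattern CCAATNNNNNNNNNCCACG. Of the 30 tested folding genes, 23 had a window, and 5 of these (21.7%) held the pattern, as did 19 of 10342 tested genes with a window (0.184%) and 39 of all 32851 windows in the table (0.119%). The 5 stretches of 100 bases end between 6 (Hspa5) and 67 (Creld2) bases before the annotated start and run 5′ to 3′ on the gene's strand, with the match in capitals; in Creld2 and Hsp90b1 it reads on the opposite strand, and Hsp90b1 has 2 matches in its window, of which 1 is shown.
Hspa5 at chr2:34771985-34772084 (+): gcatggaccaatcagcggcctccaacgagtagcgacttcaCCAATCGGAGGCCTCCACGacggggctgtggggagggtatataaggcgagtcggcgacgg
Creld2 at chr15:88819480-88819579 (+): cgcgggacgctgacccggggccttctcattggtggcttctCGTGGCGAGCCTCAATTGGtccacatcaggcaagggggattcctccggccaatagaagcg
Dnajc3 at chr14:118937787-118937886 (+): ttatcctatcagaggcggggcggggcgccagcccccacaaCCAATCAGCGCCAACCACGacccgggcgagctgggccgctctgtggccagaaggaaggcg
Hsp90b1 at chr10:86705492-86705591 (-): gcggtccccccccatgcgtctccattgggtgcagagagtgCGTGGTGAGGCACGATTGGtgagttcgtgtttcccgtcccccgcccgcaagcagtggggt
Pdia6 at chr12:17266451-17266550 (+): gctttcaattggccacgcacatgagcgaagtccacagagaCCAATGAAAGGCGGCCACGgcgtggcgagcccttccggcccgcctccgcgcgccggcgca

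All 5 genes with the pattern were called lower. Creld2, a secretory chaperone-like protein, averaged 74.2 CPM in sh3 and 130 CPM in empty TPLKO (log2 -0.81). Dnajc3, a J-domain partner of BiP, averaged 191 and 299 CPM (log2 -0.65), Hsp90b1, the ER member of the HSP90 family, 3277 and 4585 CPM (log2 -0.48), and Pdia6, a disulfide isomerase, 749 and 972 CPM (log2 -0.38). Of the 18 folding genes whose window lacked the pattern, 12 were lower and 4 higher (median -0.27). Over all 19 tested genes with the pattern, 11 were lower and 5 higher, and the lectin chaperones Calr (log2 -0.65) and Canx (log2 -0.49) were among the lower ones. Syvn1 was among the higher ones (log2 0.14), and Derl3 (log2 -0.39) was not called. The largest fall and the largest rise were those of Xlr3c (log2 -5.42) and Xlr3a (log2 4.39). A match is a description of letters in a window and says nothing of binding.

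Cytosolic genes of protein synthesis and turnover were also mostly lower. Aminoacyl-tRNA synthetases load amino acids onto transfer RNAs, and of 22 members 21 were called lower and 1 higher, with a median of -0.41 and none past 2-fold. Aars, the alanyl-tRNA synthetase, stood at 365, 365 and 360 CPM in sh3 and at 598, 606 and 613 CPM in empty TPLKO (log2 -0.74, SE 0.017). The exception was Qars, the glutaminyl-tRNA synthetase, at 105, 106 and 104 CPM in sh3 and 90.2, 95.3 and 94.8 CPM in empty TPLKO. No library of either group crossed into the range of the other for Aars or Qars, but Qars (log2 0.17) was not called with limma on log2(TPM + 1), its only lost call over 13 alternatives.

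Proteasome subunits followed, with 35 of 39 lower and 3 higher (median -0.32). Psmd6, a subunit of the regulatory cap, averaged 174 CPM in sh3 and 244 CPM in empty TPLKO. The catalytic subunits of the immunoproteasome, which replace their constitutive counterparts in immune responses, split: Psmb10 stood at 37.8, 36.4 and 34.5 CPM in sh3 and 65.4, 68.8 and 64.6 CPM in empty TPLKO. Psmb9 stood at 10.6, 10.5 and 10.7 CPM in sh3 and 5.09, 5.16 and 6.27 CPM in empty TPLKO, and Psmb8 averaged 53.3 and 30.6 CPM. Among cytosolic and mitochondrial chaperones, 32 of 46 tested were lower and 8 higher, and the smallest adjusted p-values included those of Hsph1, a nucleotide exchange factor of HSP70 (248 CPM in sh3, 388 CPM in empty TPLKO), Hsp90aa1 (896 and 1280 CPM) and Hspa4 (373 and 516 CPM). The largest fall was that of the weakly expressed small heat shock protein gene Hspb1 (log2 -1.10).

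Genes of nucleotide and one-carbon metabolism, DNA repair and G1 leaned the same way. In purine and pyrimidine synthesis 24 of 33 genes were lower and 6 higher, among them Cad, which starts pyrimidine synthesis (199 CPM in sh3, 303 CPM in empty TPLKO), and Impdh1 and Ctps, which make guanine and cytosine nucleotides (log2 -0.79 and -0.64). In serine, one-carbon and polyamine metabolism 16 of 25 were lower and 5 higher, led by Odc1, the first enzyme of polyamine synthesis, at 279, 278 and 279 CPM in sh3 and 466, 483 and 474 CPM in empty TPLKO. Of 43 genes of homologous recombination, Fanconi and mismatch repair, 27 were lower and 7 higher, Brca2 among the lower with 53.9 CPM in sh3 and 87.4 CPM in empty TPLKO. Of 27 tested cyclins, cyclin-dependent kinases and inhibitors of G1, 16 were lower and 8 higher. The G1 cyclins Ccnd1 and Ccnd2, which start cell cycle entry, fell to 390 and 273 CPM in sh3, against 578 and 391 CPM in empty TPLKO. Cdkn1a, the inhibitor p21, rose to 15.5 CPM in sh3, against 5.21 CPM in empty TPLKO (log2 1.57, SE 0.087).

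**Figure D2:**
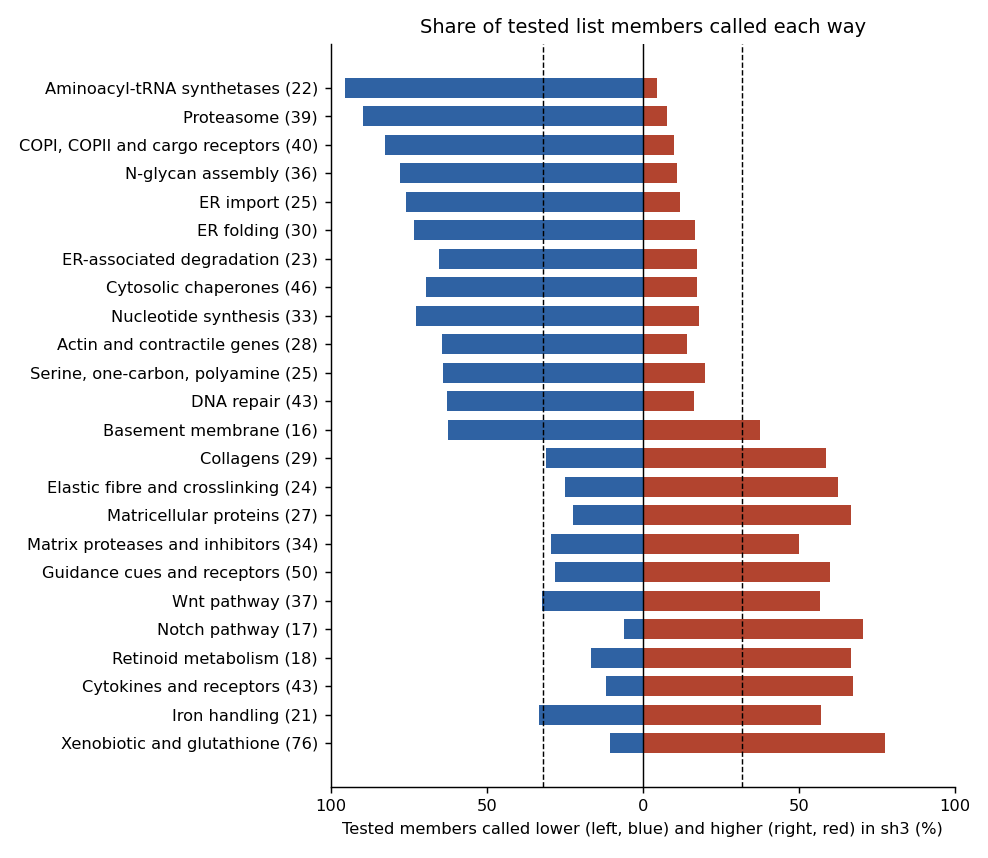
Percentage of the tested members of 24 gene lists called lower (blue, to the left) and higher (red, to the right) in sh3, with the number tested in brackets and dashed lines at the shares of all tested genes (32.0% lower, 31.8% higher). Translation, proteasome and ER lists reach far left of the left dashed line. Collagen, elastic fibre, matricellular, cytokine, Notch, retinoid and xenobiotic lists reach far right of the right dashed line. The basement membrane list reaches further left than right, with 10 of 16 members lower and 6 higher.

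Genes of the extracellular matrix changed strongly and in both directions, and the direction differed by family. Collagens are built as triple helices of chains, which are encoded by separate genes. Of 39 collagen chains, 29 passed the filter, 17 were higher (11 at least 2-fold) and 9 lower. Their summed level was 16872 to 17281 CPM in sh3 and 19007 to 19473 CPM in empty TPLKO. Type VI collagen is a microfibrillar collagen of the pericellular space. Col6a1 stood at 571, 553 and 555 CPM in sh3 and at 27.7, 27.8 and 28.1 CPM in empty TPLKO (log2 4.33, SE 0.024, adjusted p = 1.41e-16). Col6a2 stood at 300, 289 and 285 CPM in sh3 and at 19.5, 19.2 and 21.2 CPM in empty TPLKO (log2 3.87, SE 0.036). The sh3 values of both chains exceeded every empty TPLKO value by more than 10-fold. Col6a3, their partner chain, rose to 3.65, 3.33 and 2.92 CPM in sh3, against 0.603, 0.576 and 0.674 CPM in empty TPLKO (log2 2.41).

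The chains of type I collagen, the main fibrillar collagen, went apart. Col1a1 stood at 1115, 1080 and 1050 CPM in sh3 and at 525, 514 and 529 CPM in empty TPLKO (log2 1.05), while Col1a2 stood at 8688, 8513 and 8463 CPM in sh3 and at 11461, 11636 and 11776 CPM in empty TPLKO (log2 -0.44). Neither gene showed overlap between the groups. Chains of type IV and V were also split. Col4a1 to Col4a4 were lower and Col4a5 higher (log2 0.50), and Col5a1 and Col5a2 were lower and Col5a3 higher (log2 1.89). Col4a1 averaged 472 CPM in sh3 and 698 CPM in empty TPLKO, Col5a1 604 and 1167 CPM, and Col7a1, the anchoring fibril collagen, 101 and 216 CPM (log2 -1.09).

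Matricellular proteins and small proteoglycans sit in the matrix without being its scaffold, and 27 of 34 passed the filter. Of these, 18 were higher, 17 of them at least 2-fold, and 6 lower. The summed level of the list was nevertheless lower in sh3, at 10624 to 10699 CPM, against 13306 to 13591 CPM in empty TPLKO. Spp1 (osteopontin), an integrin ligand, stood at 1995, 1986 and 1970 CPM in sh3 and at 257, 263 and 263 CPM in empty TPLKO (log2 2.93, SE 0.017). Prelp, a leucine-rich proteoglycan, stood at 39.6, 38.2 and 40.1 CPM in sh3 and at 0.941, 0.886 and 0.849 CPM in empty TPLKO (log2 5.46). The related proteoglycans Fmod and Bgn rose with it (log2 4.48 and 3.56), as did Mgp, an inhibitor of calcification (log2 4.15). Thbs1 (thrombospondin 1), which activates latent TGF-beta, had the largest loss in mean CPM of all tested genes, at 3935, 3924 and 4020 CPM in sh3 and 9681, 9804 and 9914 CPM in empty TPLKO (log2 -1.31, SE 0.013). Tnc (tenascin C) fell as well, to 9.53 CPM in sh3, against 30.2 CPM in empty TPLKO.

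Basement membrane genes were split by subunit. All 16 tested members were called, 10 lower and 6 higher. Lamb3, a laminin beta chain of epithelia, fell to 5.47 CPM in sh3, against 18.1 CPM in empty TPLKO (log2 -1.73), and Lamb1 to 104 CPM, against 231 CPM. Lama5, a laminin alpha chain, fell as well (log2 -2.47). The rises were Lama2, the alpha chain of muscle-type laminin (1.97 CPM in sh3, 0.215 CPM in empty TPLKO), Nid2 (18.4 and 3.48 CPM), Npnt, Lama3, Dag1 and Agrn. Among integrins, the receptors of these proteins, 10 of 20 tested were higher and 5 lower, including Itgb4, a subunit of the hemidesmosomal laminin receptor, at 11.4, 9.06 and 9.63 CPM in sh3 and 1.04, 1.13 and 1.35 CPM in empty TPLKO (log2 3.10).

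Matrix turnover genes moved unevenly, with 17 of 34 tested proteases and inhibitors higher and 10 lower. Their summed level was 4106 to 4155 CPM in sh3 and 6617 to 6658 CPM in empty TPLKO. Mmp2 (gelatinase A) rose to 34.9, 38.9 and 37.1 CPM in sh3, against 10.4, 10.9 and 9.81 CPM in empty TPLKO (log2 1.83). The inhibitor Timp3 fell to 2059, 2052 and 2093 CPM in sh3, against 3996, 4042 and 4007 CPM in empty TPLKO (log2 -0.96), and Timp2 fell by 0.56 on the log2 scale, while Timp1 rose by 0.58. The extracellular sulfatases that trim heparan sulfate went apart: Sulf2 stood at 201, 197 and 202 CPM in sh3 and at 19.6, 20.2 and 20.1 CPM in empty TPLKO (log2 3.33, SE 0.028), and Sulf1 averaged 1.46 CPM in sh3 and 8.80 CPM in empty TPLKO. Among the heparan sulfate core proteins, Sdc1 rose to 144 CPM, against 55.4 CPM, and Gpc1 fell to 291 CPM, against 683 CPM in empty TPLKO.

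**Figure D3:**
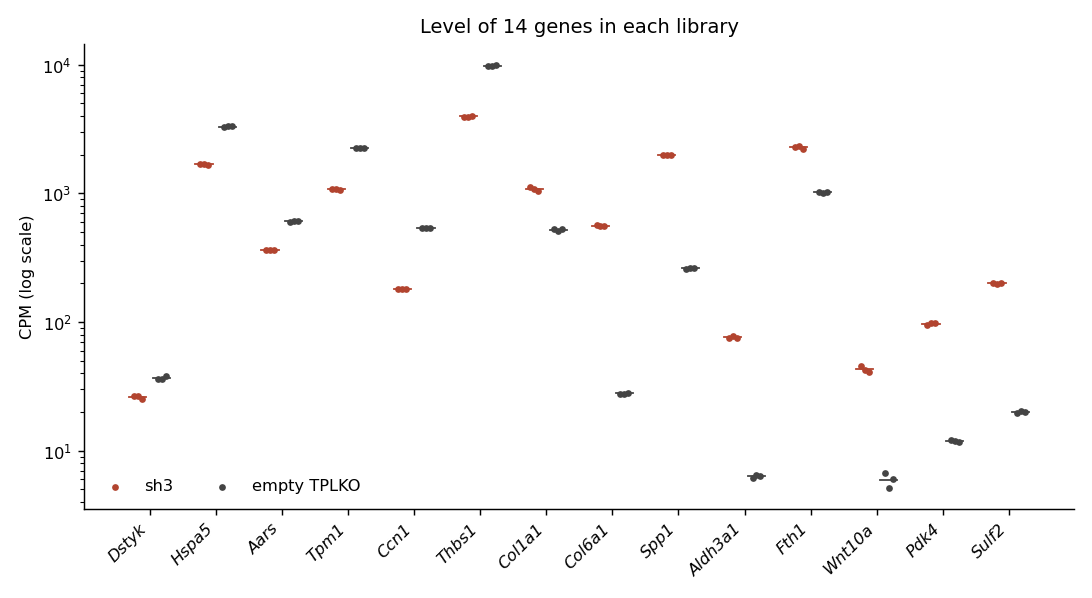
CPM (log scale) of 14 genes in each library, with sh3 in red on the left and empty TPLKO in dark grey on the right of each gene, a point per library and a bar at the mean of 3. For every gene drawn the 3 sh3 points lie apart from the 3 empty TPLKO points, with Col6a1 and Aldh3a1 at the widest distance.

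Actin cytoskeleton genes were mostly lower. Serum response factor and its MRTF partners drive these genes when monomeric actin is used up, and YAP with TEAD drives a partly shared set. Of 28 tested actin cytoskeleton genes, 18 were lower and 4 higher, and their summed level was 12881 to 12994 CPM in sh3 and 20297 to 20372 CPM in empty TPLKO. The cytoplasmic actins fell, Actg1 to 2447, 2431 and 2416 CPM in sh3, against 4901, 4884 and 4915 CPM in empty TPLKO (log2 -1.01), and Actb to 2497 CPM, against 3990 CPM (log2 -0.68). Tpm1, a tropomyosin that lines actin filaments, averaged 1077 CPM in sh3 and 2247 CPM in empty TPLKO (log2 -1.06). Acta2, smooth muscle actin, went the other way, at 33.5, 34.3 and 31.8 CPM in sh3 and 9.17, 9.55 and 8.74 CPM in empty TPLKO (log2 1.86). Actin genes resemble each other and have processed pseudogenes, so reads shared among them make their counts uncertain.

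Of 27 tested YAP and TEAD targets, 15 were lower and 10 higher. Among the lower were Ccn1, a secreted matricellular factor, at 180, 181 and 180 CPM in sh3 and 538, 537 and 541 CPM in empty TPLKO (log2 -1.58, SE 0.017), Amotl2 at 117 and 239 CPM and Ajuba at 70.9 and 133 CPM. Igfbp3, an IGF binding protein, was the largest rise of the list (log2 1.40), and Yap1 itself was higher, at 268 CPM in sh3 and 215 CPM in empty TPLKO (log2 0.32). Tns1 (tensin 1), a focal adhesion protein that binds actin, stood at 14.5, 14.4 and 14.1 CPM in sh3 and 67.8, 66.9 and 70.6 CPM in empty TPLKO (log2 -2.26).

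Enzymes that detoxify foreign compounds and conjugate glutathione rose together. Of 87 listed genes, 76 passed the filter, 59 were higher, 29 of them at least 2-fold, and 8 lower with none at 2-fold. Their summed level was 6023 to 6035 CPM in sh3 and 4223 to 4262 CPM in empty TPLKO. Aldh3a1, an aldehyde dehydrogenase, stood at 75.5, 77.7 and 75.5 CPM in sh3 and at 6.11, 6.53 and 6.39 CPM in empty TPLKO (log2 3.58, SE 0.041). Gstm2, a mu-class glutathione transferase, averaged 59.7 CPM in sh3 and 7.91 CPM in empty TPLKO, and Ephx1, the microsomal epoxide hydrolase, averaged 93.2 and 19.5 CPM. The cytochromes Cyp1a1 and Cyp1b1, classic targets of the aryl hydrocarbon receptor, rose by 5.28 and 1.63 on the log2 scale, Cyp1a1 from few counts.

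The carboxylesterases Ces1d and Ces1f and the glucuronosyltransferase Ugt1a6b were not on that list. Ces1d stood at 136, 131 and 135 CPM in sh3 and at 2.08, 1.93 and 2.82 CPM in empty TPLKO (log2 5.89, SE 0.068), and Ces1f at 36.4, 34.5 and 36.1 CPM in sh3 and 0.290, 0.665 and 0.524 CPM in empty TPLKO. Ugt1a6b averaged 30.7 CPM in sh3 and 0.777 CPM in empty TPLKO (log2 5.30). These genes, like the mu-class transferases, belong to families of close copies, so the split of reads within a family is uncertain. The antioxidant response element TGACNNNGC, searched in the same windows, was held by 9 of 61 list members with a window (14.8%) and by 16.4% of tested genes with a window; no test was made of these shares.

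Iron handling genes included the ferritins. Fth1, the heavy chain of the iron store ferritin, stood at 2299, 2333 and 2198 CPM in sh3 and at 1030, 997 and 1026 CPM in empty TPLKO (log2 1.16, SE 0.022), and the light chain Ftl1 averaged 4657 and 3487 CPM (log2 0.42). Cp (ceruloplasmin) and Slc40a1 (ferroportin), which act in iron export, rose by 1.67 and 1.46, and Tfrc, the transferrin receptor of iron uptake, fell by 0.49. Over the list, 12 of 21 tested genes were higher and 7 lower. In retinoid metabolism 12 of 18 were higher and 3 lower, led by Dhrs9, a retinol dehydrogenase, at 34.6 CPM in sh3 and 2.62 CPM in empty TPLKO (log2 3.72).

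**Figure D4:**
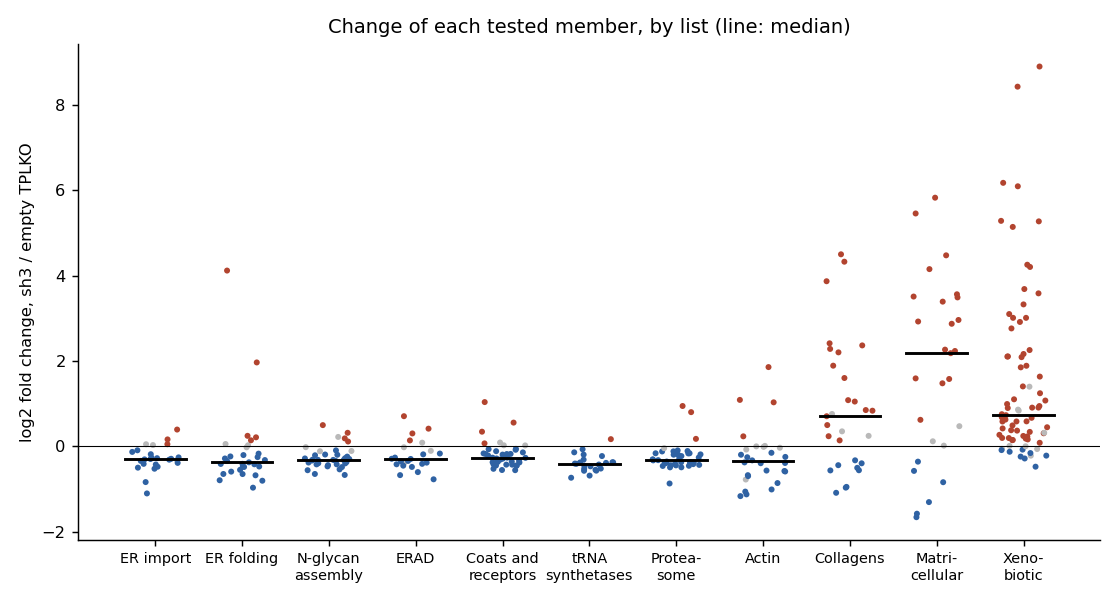
Log2 fold change of sh3 over empty TPLKO for each tested member of 11 lists, a point per gene (red called higher, blue called lower, grey not called) with the list median as a black line. Members of the ER, transfer RNA synthetase and proteasome lists cluster just under 0, whereas collagens, matricellular proteins and xenobiotic enzymes spread upward past 4.

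Complement, the plasma protease cascade of innate immunity, was higher in 8 of its 18 tested genes and lower in 2, of 30 listed, and 8 were not called. The share called was 55.6%, against 63.8% of all tested genes. The classical pathway proteases C1s1 and C1ra averaged 47.8 and 86.4 CPM in sh3, against 4.34 and 24.4 CPM in empty TPLKO. Masp1, a protease of the lectin pathway, fell to 163 CPM, against 242 CPM. Ptx3, a pattern recognition pentraxin that binds C1q, averaged 35.6 CPM in sh3 and 0.572 CPM in empty TPLKO (log2 5.94), and Slpi, a secreted protease inhibitor of mucosa, 23.6 and 0.484 CPM (log2 5.60).

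Chemokines and cytokine receptors rose more often than they fell, with 29 of 43 tested genes higher (20 at least 2-fold) and 5 lower. Cxcl12, the ligand of Cxcr4 in stromal cells, had 522, 538 and 472 counts in sh3 and 3, 2 and 4 counts in empty TPLKO. Cx3cl1 (fractalkine) averaged 42.9 CPM in sh3 and 9.05 CPM in empty TPLKO (log2 2.24), and the receptor chain Il13ra1 averaged 99.7 and 35.4 CPM. Lifr was the largest fall, at 1.73 and 4.23 CPM. The leukocyte markers given above were near 0 in both groups, and which cells these transcripts came from was not tested.

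Wnt proteins are lipid-modified signals of development, and genes of their pathway moved both ways. Of 57 listed Wnt pathway genes, 37 passed the filter, 21 were higher (14 at least 2-fold) and 12 lower (5 at least 2-fold). Wnt10a stood at 45.4, 42.5 and 41.1 CPM in sh3 and at 6.69, 5.18 and 6.04 CPM in empty TPLKO (log2 2.85, SE 0.075), and Wnt10b had 186, 196 and 190 counts in sh3 and 0, 3 and 0 in empty TPLKO. Wnt5a rose by 2.26 on the log2 scale and the secreted inhibitor Sfrp1 by 5.54. The receptor Fzd6 fell to 179 CPM, against 357 CPM in empty TPLKO. Axin2, a commonly used target of canonical Wnt signalling, averaged 0.805 CPM in sh3 and 1.16 CPM in empty TPLKO and was not called.

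Among Notch pathway genes, 12 of 17 tested were higher and 1 lower. Hey1, a repressor induced by Notch, stood at 28.9, 30.4 and 31.0 CPM in sh3 and at 10.8, 10.1 and 10.2 CPM in empty TPLKO (log2 1.54), and the receptor Notch1 averaged 6.59 and 2.47 CPM. The lower gene was Rfng, a fringe glycosyltransferase that modifies Notch (log2 -0.13), and it was not called without the second sh3 library, without the first empty TPLKO library, with library size alone as the scale or with limma on log2(TPM + 1). In the TGF-beta and BMP list 21 of 43 were higher and 13 lower, against 31.8% higher and 32.0% lower among all tested genes. Inhba, the subunit of activin A, fell to 101, 106 and 117 CPM in sh3, against 406, 380 and 369 CPM in empty TPLKO (log2 -1.83), and Fstl1, a secreted follistatin-like protein, rose to 20.1 CPM, against 0.717 CPM (log2 4.80).

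Growth factors and their receptors showed no common direction, with 15 of 37 tested ligands higher and 13 lower. Ptn (pleiotrophin) rose to 258 CPM in sh3, against 113 CPM in empty TPLKO, and the neurotrophic factors Artn and Gdnf fell to 28.1 and 30.7 CPM, against 69.5 and 64.8 CPM. The neurotrophin receptor Ntrk3 rose to 27.7, 25.0 and 25.8 CPM in sh3, against 4.15, 3.94 and 4.15 CPM in empty TPLKO (log2 2.68). Irs2, an adaptor of the insulin and IGF receptors, fell to 97.8, 96.5 and 94.6 CPM in sh3, against 277, 270 and 265 CPM in empty TPLKO (log2 -1.49, SE 0.024), and the IGF binding protein Igfbp4 fell to 270 CPM, against 610 CPM. Guidance cues and receptors, which steer axons and vessels, were higher in 30 of 50 and lower in 14. Their summed level was 3106 to 3152 CPM in sh3 and 3550 to 3588 CPM in empty TPLKO. Sema3c fell most among them, to 8.01 CPM, against 31.0 CPM in empty TPLKO (log2 -1.96), and the netrin receptor Unc5b fell to 98.2 CPM, against 211 CPM.

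Transcription factors of lung, squamous and mesenchymal lineages were called in 39 of 56 tested cases, 27 higher and 12 lower. The share called was 69.6%, close to the 63.8% of all tested genes. Prrx1, a homeobox factor of limb and stromal mesenchyme, stood at 9.47, 9.97 and 9.56 CPM in sh3 and at 0.0965, 0.0443 and 0.0749 CPM in empty TPLKO. Eya2, a transcriptional co-activator and phosphatase, had 148, 149 and 148 counts in sh3 and none in empty TPLKO. Etv1, an ETS factor, rose to 22.4 CPM, against 5.22 CPM (log2 2.10). Of 24 tested HOX genes, the markers of position along the body axis, 13 were not called, 6 were higher and 5 lower, with Hoxa10 at 7.50 CPM in sh3 and 3.88 CPM in empty TPLKO. The share of HOX genes called was 45.8%, below the 63.8% of all tested genes. The fall of Gata4, on the lineage list (log2 -1.48), rested on 19 counts in sh3 and 53 in empty TPLKO and was not called in 3 of the 6 fits that left out a library, nor with limma on log2(TPM + 1).

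Keratins and junction genes did not move as a block. Of 25 keratins, 9 passed the filter, 5 were higher, all of them at least 2-fold, and 3 lower. The higher ones were weakly expressed, Krt14 (given above) the most abundant of them in CPM and Krt19 with 41 counts in sh3 and 0 in empty TPLKO. The simple epithelial pair Krt8 and Krt18 fell to 284 and 82.7 CPM in sh3, against 437 and 144 CPM in empty TPLKO, and Krt80, a keratin of desmosomes, fell to 14.4 CPM, against 41.5 CPM (log2 -1.53). Jup (plakoglobin) rose to 116 CPM, against 67.7 CPM, and Cldn1, a claudin of tight junctions, to 12.7, 11.8 and 11.8 CPM, against 1.13, 0.842 and 1.32 CPM (log2 3.46). Tjp1, which links tight junctions to actin, fell to 136 CPM, against 224 CPM in empty TPLKO. Over the 23 tested junction genes, 9 were higher and 9 lower.

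Genes of fuel metabolism moved in both directions, with 18 of 39 fatty acid oxidation genes higher and 12 lower, and 18 of 34 fatty acid synthesis genes higher and 12 lower. Pdk4, the kinase that shuts off pyruvate dehydrogenase, stood at 95.0, 98.5 and 98.3 CPM in sh3 and at 12.2, 11.9 and 11.7 CPM in empty TPLKO (log2 3.03, SE 0.035), and pyruvate carboxylase, Pcx, averaged 84.4 and 42.2 CPM. In the citric acid cycle list 14 of 33 members were higher and 13 lower. The lowest member of that list was Idh3a, a subunit of isocitrate dehydrogenase (log2 -0.48). In fatty acid synthesis, the synthase Fasn fell to 372, 362 and 359 CPM in sh3, against 656, 676 and 683 CPM in empty TPLKO (log2 -0.88), while the desaturase Scd2 rose to 1333, 1346 and 1366 CPM, against 672, 680 and 672 CPM. Ppargc1a, a coactivator of mitochondrial biogenesis, averaged 2.04 CPM in sh3 and 6.37 CPM in empty TPLKO (log2 -1.65).

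The list of mTOR complexes and lysosomal nutrient sensing, which govern cell growth, had 22 of 48 genes higher and 19 lower. Deptor, which binds and restrains mTOR, averaged 40.6 CPM in sh3 and 11.6 CPM in empty TPLKO (log2 1.81), and Sesn3, a sestrin, 361 and 148 CPM (log2 1.28). Rragd, a Rag GTPase that brings mTOR to lysosomes, fell to 3.22 CPM, against 11.8 CPM (log2 -1.87), and the translation repressor Eif4ebp1 fell to 153 CPM, against 263 CPM. The amino acid transporters Slc7a5 and Slc7a1 fell to 293 and 235 CPM, against 496 and 365 CPM, while the glutamate transporter Slc1a3 rose to 805 CPM, against 430 CPM. Imprinted genes, expressed from a parental allele, were higher in 20 of 32 tested cases and lower in 5, with Asb4 at 15.5 and 0.537 CPM and Igf2r at 47.8 and 21.0 CPM in sh3 and empty TPLKO.

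Genes that were silent in either group were counted apart, because a fold change against near-zero counts is not defined. With at most 3 counts summed over the empty TPLKO libraries and at least 100 over the sh3 libraries there were 41 genes, 3 of them with at least 1000 counts. The reverse pattern was found for 4 genes, none of them at 1000 counts. Cytl1, a small secreted protein of cartilage, had 877, 863 and 783 counts in sh3 and 2, 1 and 0 in empty TPLKO. Nckap1l, a subunit of the WAVE complex in blood cells, had 224, 191 and 211 counts in sh3 and 2, 1 and 0 in empty TPLKO, while Ptprc stayed near 0 as given above. Gas7, an actin-binding protein just past that limit, had 959, 940 and 903 counts in sh3 and 3, 1 and 0 in empty TPLKO. In the other direction Fam83f had no counts in sh3 and 41, 33 and 27 in empty TPLKO. Fam177a had 196, 0 and 131 counts and Pgam1-ps2 had 263, 0 and 0 counts in empty TPLKO, none in sh3, and neither was tested.

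Genes also shifted by chromosome. Median log2 fold changes were computed in windows of 10 Mb with at least 15 tested genes, as a description with no test, and 243 windows qualified. All 9 windows of chromosome 17 had a median between 0.20 and 0.32, and all 6 windows of chromosome 19 had a median between 0.16 and 0.32, against 0.011 over all tested genes. On chromosome 17, 396 of 733 tested genes were higher and 58 lower. Chromosome 8 lay on the other side, with medians of -0.43 at 60 to 70 Mb and -0.40 at 10 to 20 Mb, and 411 of its 763 tested genes were lower and 142 higher. Chromosome 2 was mixed, near 0 in its first 30 Mb and between 0.20 and 0.22 from 110 to 140 Mb. The number of copies of these chromosomes was not measured here, and its part in the result was not tested. Genes named above lie on these chromosomes, among them Fth1, Scd2, Pcx and Acta2 on chromosome 19. Igf2r, Psmb8, Psmb9, Rnf5 and Cdkn1a lie on chromosome 17. The lower genes Aars, Calr, Herpud1, Spcs3, Irs2, Psmb10 and Slc7a5 lie on chromosome 8, as do the higher genes Ces1d, Ces1f, Cx3cl1 and Mmp2. Of the 763 tested genes of chromosome 8, 44 were called at least 2-fold higher and 25 at least 2-fold lower. Among all tested genes the shares were 8.04% at least 2-fold higher and 2.27% at least 2-fold lower.

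**Figure D5:**
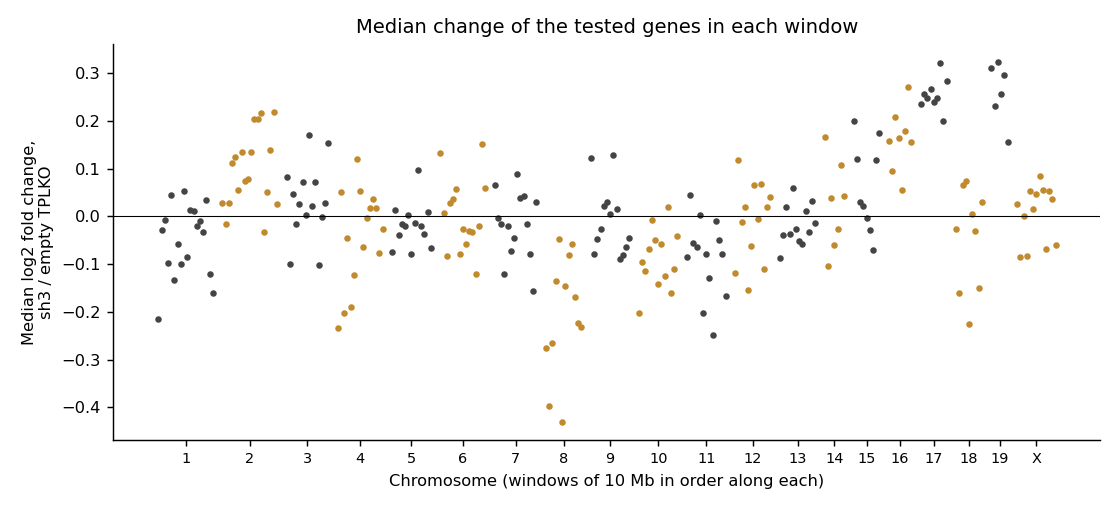
Median log2 fold change of sh3 over empty TPLKO among the tested genes of each 10 Mb window with at least 15 of them (243 points), in order along each chromosome, with neighbouring chromosomes in alternating colours. Every window of chromosomes 16, 17 and 19 lies above 0 and every window of chromosome 8 lies below it, except that with library size alone as the scale the chromosome 8 windows at 40 to 50 Mb and 90 to 100 Mb stood at 0.012 and 0.0030.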

How the data were processed

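Per the labels' protocols, strand-specific mRNA libraries of UN-SCC679 cells were sequenced at 75 bases on a NextSeq; single-end and paired-end runs are both mentioned, without a library for each. The submitters' processing notes name kallisto, sleuth and the mm10 build and give no versions. Each transcript has an estimated count per library in the deposited table, not normalized, in which a read that fits several transcripts is divided among them. Effective lengths, also deposited, served an alternative on TPM; the deposited TPM column was not used.

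Transcripts were assigned to genes of GENCODE mouse release M21 (GRCm38, also called mm10): 116816 of 118489 matched, and the 1673 without a match held 0.515% to 0.523% of a library's counts and entered neither library sizes nor tests. Of the tested genes, 13226 were protein-coding and nearly all others pseudogenes. Gene sums of the estimated counts were rounded. Pairs of libraries of a group differed by more than sampling noise (mean chi-square per gene 3.40 to 4.90). The division of shared reads can add to this spread, so the value does not tell separate cultures from technical repeats. Each library entered the test as a library of its own.

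The test was edgeR 4.0.16's quasi-likelihood test in R 4.3.3 on the 6 libraries, with trimmed means of M-values (TMM) scaling, the default filter (minimum count 10, minimum total 15) and Benjamini-Hochberg adjustment over the 14271 tested genes. CPM are TMM-scaled. TPM entered only an alternative with a pseudocount of 1. The procedure was checked on simulated counts, with few genes changed, equally often up and down, and dispersions taken from these libraries. Far more genes were called in the data, so the check does not cover scaling or false calls under so broad a response. Other scalings, filters, DESeq2 1.42.0, limma 3.58.1, a replicate block and leaving out each library were tried.

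The 47 gene lists, the 8 marker lists and the rule for named genes were chosen with earlier results of these data known, so list counts and medians are descriptions and no list was tested. The rule took Dstyk; the 15 largest rises and falls at a mean log2 CPM from 3 upward without overlap between groups; in each list the 3 called members with the smallest adjusted p and the largest rise and fall; the 6 genes each way silent in the other group; and, in each direction, the 6 largest differences in mean CPM. Further members of small families, the genes with the ERSE letters and members set beside a named gene (such as Yap1, Axin2, Wnt5a, Sfrp1, Gstm2, Ephx1, Cyp1a1, Cyp1b1, Slc40a1, Tfrc and the minor basement membrane genes) were named after their values were seen. Promoter sequences are from RefSeq windows on GRCm38.p6. A few genes are not reported here.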

Additional observations from a re-analysis of the deposited data

How the results depend on the processing

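The number of called genes, 9112, stayed within 1.5 times under all 13 alternatives run. It was 9108 with DESeq2 size factors, 9086 with library size alone, 9430 with no filter, 8651 with a filter of 1 CPM in 3 libraries, 8568 with the DESeq2 Wald test and 7866 with limma on log2(TPM + 1), and 8531 to 8838 when a library was left out. The number called at least 2-fold, 1471, was 602 with limma on log2(TPM + 1), where the pseudocount shrinks the change of low genes, and 1030 to 1882 under the other alternatives that used all libraries. Library size alone shifted the median of all genes by 0.059 and put 58.7% of calls on the higher side, against 49.8%. The Dstyk change stayed between -0.51 and -0.43. Of 47 list medians, those of the growth factor, IGF and citric acid cycle lists, all close to 0, changed sign under library size alone or with each chromosome's median removed; of the 243 chromosome windows, 56 changed sign under library size alone.

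Same-numbered libraries did not deviate together (correlations of -0.012, 0.042 and 0.0084 across genes). With 3 libraries a group and little spread within groups, these values cannot show whether the replicate numbers mark a shared culture or batch. With the replicate number as a block, 8806 genes were called, 1439 of them at least 2-fold, and Dstyk changed by -0.50. Labelled replicates that may be technical limit what the small spread shows, and at 40525385 to 46371244 counts a library, genes near the filter had large relative errors.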
